A study of Mus with 6 samples.

Results

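The 8 genes described here are the serum amyloid A genes Saa1, Saa2, Saa3 and Saa4, the orosomucoid genes Orm1, Orm2 and Orm3, and the lipocalin 2 gene Lcn2. They were taken by symbol from a liver expression table of 48882 genes, and all 8 were found in it. All 8 also passed the abundance filter, a mean of at least 0.5 TPM over the 6 libraries, as did 14155 genes in all. TPM is a measure of abundance per length of transcript, so levels of different genes can be set side by side. The liver came from Fabp4 knockout mice (3 libraries, labelled FABP4-/-) and from wild type littermates (3 libraries). Fabp4 encodes a fatty acid-binding protein of adipocytes and macrophages. Both groups had the Lieber-DeCarli liquid diet with ethanol for 8 weeks and 1 ethanol binge, a model of alcoholic steatohepatitis. No liver without ethanol was analysed here. The labels give no age, sex or strain, and do not say in which cells Fabp4 was deleted. The question here is whether the loss of Fabp4 goes with another level of these transcripts under ethanol.

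The products of these genes are acute-phase proteins, plasma proteins whose synthesis by hepatocytes climbs in inflammation. Interleukin 6 acts through STAT3, and interleukin 1 and tumour necrosis factor act through NF-kB, and together with C/EBP factors they switch on transcription of the genes. SAA1 and SAA2 are apolipoproteins that ride on high-density lipoprotein, SAA3 is also made by macrophages and adipocytes, and SAA4 is the constitutive form. Orosomucoid (alpha-1-acid glycoprotein) is a heavily glycosylated plasma protein that binds drugs and lipids. Lipocalin 2 withholds iron from bacteria by binding their siderophores and is made by neutrophils and epithelia as well as by stressed hepatocytes.

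The members lie in 3 places of the mm10 genome and are all annotated as protein coding. The serum amyloid A genes share a cluster of 42.3 kb on chromosome 7. In order along the chromosome it holds Saa3 (46711998 to 46715676), Saa4 (46727998 to 46732543), Saa1 (46740497 to 46743071), all 3 on the minus strand, and Saa2 (46751769 to 46754314) on the plus strand. Saa1 and Saa2 therefore stand head to head, with 8.70 kb between them. The orosomucoid genes share a cluster of 21.3 kb on chromosome 4, all on the plus strand, with Orm1 (63344556 to 63348163) first, Orm3 (63355280 to 63359511) in the middle and Orm2 (63362449 to 63365877) last. Lcn2 stands alone among the members on chromosome 2 (32384637 to 32387739, minus strand). Saa1 and Saa2 are copies of each other, and the Orm genes are related copies, so reads can be credited to the wrong copy. How alike the copies are in sequence was not computed. Each family was therefore also summed.

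Before the results, 2 libraries need naming. Wild type replicate 2 had a score of 38.1 on principal component 1 (33.9% of the variance), where the rest lay between -22.3 and 2.497. Knockout replicate 1 had 30.8 on principal component 2 (21.6%), where the rest lay between -21.8 and 5.92. Fabp4 measured 14.7, 8.15 and 19.96 TPM across the wild type libraries and had no value in the knockout ones. The number of reads behind a TPM is unknown, so no counting interval can be given. In bulk liver, fewer cells of a type and less RNA per cell cannot be told apart.

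Of the 8 genes, 7 had all 3 knockout values below all 3 wild type values, and Saa3 was the exception. The same 7 had an unadjusted p under 0.05 in limma, lower in the knockout. Over all genes tested, 4.38% were without overlap and lower, and 2.91% were lower at an unadjusted p under 0.05. The median difference of the 8 genes was -1.33 on the log2(TPM + 1) scale, against 0.04 for all genes. None of the 8 passed the limma threshold of a Benjamini-Hochberg adjusted p under 0.05, which 0.00706% of the genes did, a single gene, Fabp4. With 3 against 3 libraries the exact two-sided permutation test cannot give a p below 0.1, and it gave 0.1 for each of the 7. The members were chosen with results of these libraries known, so the count of 7 describes these libraries. Without both of the libraries that lay apart, 7 were again lower at an unadjusted p under 0.05 in limma, but not the same genes, since Saa3 was then among them (p 0.0493) and Saa4 was not (p 0.0728).

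**Figure D1:**
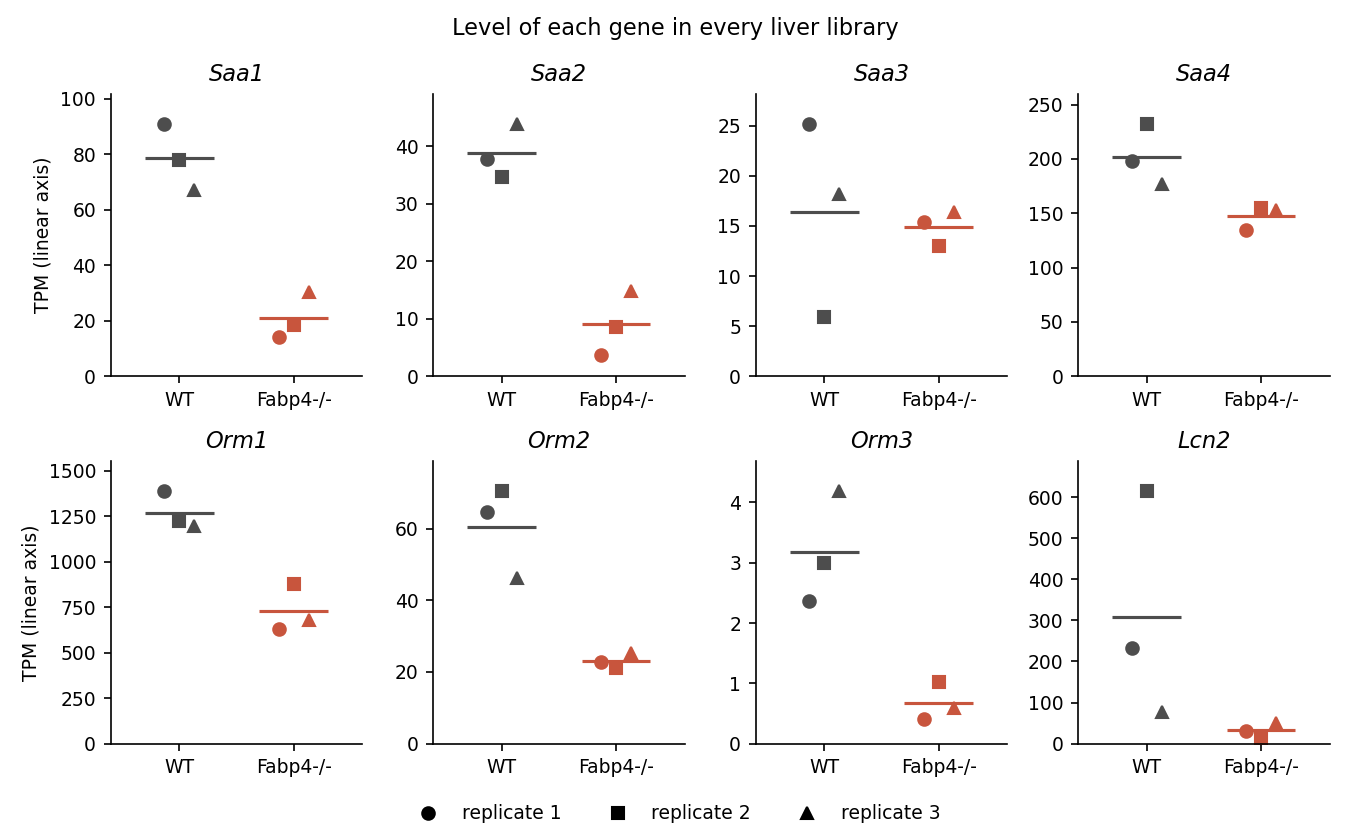
TPM of each of the 8 genes (linear axes from 0, a separate scale for each gene) in 3 wild type (grey) and 3 knockout (red) liver libraries, with the marker shape giving the replicate number and the line the group mean. The groups are apart for 7 genes, and for Saa3 the knockout values of 13.0 to 16.4 TPM lie inside the wild type range of 5.94 to 25.2 TPM.

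Saa1, the first of the inducible serum amyloid A genes, measured 91.0, 77.9 and 67.2 TPM across wild type replicates 1, 2 and 3, in that order, as all values below are given. Across knockout replicates 1, 2 and 3 it measured 14.1, 18.6 and 30.4 TPM. The wild type libraries were close together, and the lowest of them stood 2.21 times above the highest knockout library. The knockout mean was 26.7% of the wild type mean, and the log2 difference was -1.91 (SE 0.26, 95% interval -2.52 to -1.30). The limma adjusted p was 0.214. Over 13 alternative runs it lay between 0.0493 and 0.822, and it was under 0.05 in 1 of them. That run left out knockout replicate 3, the knockout library with the most Saa1, and gave a difference of -2.20.

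Its neighbour Saa2 measured 37.8, 34.7 and 44.0 TPM across the wild type and 3.67, 8.53 and 14.8 TPM across the knockout libraries. Here the knockout libraries were the more scattered, with a 4.05-fold range against 1.27-fold in wild type, and again no value overlapped. The knockout mean was 23.2% of the wild type mean (log2 difference -2.15, SE 0.39). Saa2 gave 29.4% to 39.5% of the Saa1 and Saa2 sum in wild type and 20.7% to 32.8% in the knockout, ranges that overlap (exact permutation p = 0.6, two-sided, n = 3 each). The split between the copies therefore did not differ beyond the spread between libraries, and it depends on how reads were assigned.

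The sum of Saa1 and Saa2 depends less on that split. It measured 129, 113 and 111 TPM across the wild type and 17.8, 27.1 and 45.2 TPM across the knockout libraries. The wild type libraries lay within a 1.16-fold range and the knockout libraries within a 2.55-fold range. The log2 difference was -2.03 (SE 0.29, 95% interval -2.71 to -1.34; limma adjusted p 0.279). Without knockout replicate 3 the difference was -2.36 and the limma adjusted p 0.0493. Of 13 alternative runs, only that 1 had an adjusted p under 0.05, and the highest was 0.836.

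Saa4, the constitutive member, was the most abundant serum amyloid A gene in every library. It measured 198, 232 and 177 TPM across the wild type and 135, 155 and 153 TPM across the knockout libraries. The groups did not overlap but came close, since the lowest wild type library was 1.14 times the highest knockout library. The knockout mean was 72.9% of the wild type mean (log2 difference -0.45, SE 0.14, 95% interval -0.77 to -0.12; limma adjusted p 0.536). Without both wild type replicate 2 and knockout replicate 1 the difference was -0.28 (95% interval -0.59 to 0.04, limma unadjusted p 0.0728). Within libraries, the log2 ratio of the Saa1 and Saa2 sum to Saa4 was -0.62, -1.05 and -0.67 in wild type and -2.92, -2.52 and -1.76 in the knockout. The inducible pair was thus lower relative to Saa4 in all 3 knockout libraries (difference -1.62, exact permutation p = 0.1, adjusted p 0.14 over 7 ratios). This ratio was added after the values had been seen.

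Saa3, the form also made by macrophages and adipocytes, measured 25.2, 5.94 and 18.2 TPM across the wild type and 15.4, 13.0 and 16.4 TPM across the knockout libraries. The knockout libraries were alike, and the wild type libraries spread 4.24-fold, with replicate 2 the lowest of all 6. The log2 difference was 0.07 (SE 0.44), and its 95% interval of -0.95 to 1.08 holds changes in either direction. Its sign rested on single libraries, as leaving out wild type replicate 2 gave -0.50 and leaving out knockout replicate 3 gave -0.000598. The 13 macrophage and Kupffer cell markers, all of them abundant enough to test, summed to 199 to 597 TPM in wild type and to 416 to 1011 TPM in the knockout. Their lowest sum was in wild type replicate 2, the library with the least Saa3, and their highest in knockout replicate 3. Of the 13, 3 were higher in the knockout at an unadjusted p under 0.05 (background 5.12%). These were the Kupffer cell genes Vsig4 (1.04, SE 0.31), Timd4 (1.07, SE 0.34) and Clec4f (0.94, SE 0.35, all log2 differences). The count was 8 without wild type replicate 1, and 2 or 3 without any other single library. None of the 13 differences was below 0 (median 0.74). The part of macrophages and Kupffer cells in the Saa3 values was not tested. Among the adipocyte markers, the adipokine gene Adipoq measured 1.99 TPM in knockout replicate 1 and had no value elsewhere. Cfd (5.94 TPM), Plin1 (0.49 TPM), Retn (0.39 TPM) and Lep were also highest in that library. Car3, Cidec and Pparg were not, and unlike Adipoq they had values in all 6 libraries. Saa3 in that library lay between those of the other knockout libraries. The part of adipocytes in the Saa3 values was not tested either.

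All 4 serum amyloid A genes together measured 352, 351 and 306 TPM across the wild type and 168, 195 and 214 TPM across the knockout libraries. The difference of this sum was -0.81 (SE 0.14; limma adjusted p 0.448), smaller in size than that of the inducible pair, and Saa4 made up most of the sum in every library.

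Orm1 was the most abundant member by far, ranking 89th of all genes by mean TPM in wild type and 173rd in the knockout. It measured 1388, 1225 and 1197 TPM across the wild type and 629, 879 and 682 TPM across the knockout libraries. Both groups were tight, with 1.16-fold and 1.40-fold ranges, and the lowest wild type value was 1.36 times the highest knockout value. The knockout mean was 57.5% of the wild type mean (log2 difference -0.81, SE 0.16, 95% interval -1.18 to -0.44; limma adjusted p 0.522).

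Orm2 measured 64.6, 70.4 and 46.3 TPM across the wild type and 22.8, 21.1 and 25.3 TPM across the knockout libraries. Its knockout libraries were within a 1.20-fold range, and the gene had the smallest p of the 8 members, the sixth smallest of all genes tested. The log2 difference was -1.34 (SE 0.18, 95% interval -1.74 to -0.93), with a limma adjusted p of 0.183. Without wild type replicate 3, the wild type library with the least Orm2, the difference was -1.51 and the limma adjusted p 0.0494. Of 13 alternative runs, only that 1 had an adjusted p under 0.05, and the highest was 0.822.

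Orm3 was the scarcest member, with 2.36, 2.99 and 4.18 TPM across the wild type and 0.407, 1.03 and 0.583 TPM across the knockout libraries. The table gives it a length of 3234 bases, against 779 for Orm1 and 774 for Orm2, and that length enters its TPM. The groups did not overlap, and the knockout mean was 21.2% of the wild type mean. The log2 difference of -1.32 (SE 0.22; limma adjusted p 0.387) understates this, since a pseudocount of 1 is large beside such levels, and with a pseudocount of 0.1 it was -2.13.

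The Orm sum measured 1455, 1298 and 1247 TPM across the wild type and 652, 901 and 708 TPM across the knockout libraries. Its log2 difference was -0.83 (SE 0.16, 95% interval -1.20 to -0.47; limma adjusted p 0.527). Orm1 made up 94.3% to 95.9% of the sum in wild type and 96.4% to 97.5% in the knockout. Orm2 gave 3.72% to 5.42% in wild type and 2.34% to 3.57% in the knockout, and Orm3 gave 0.163% to 0.335% and 0.0624% to 0.114%. None of these 3 shares overlapped between groups (exact permutation p = 0.1 for each, n = 3 each, adjusted p 0.14 over 7 ratios). The shares add up to the whole, so they are not 3 separate results. For Orm2 the lowest wild type share, 3.72%, lay close to the highest knockout share, 3.57%. The deposited values look quantile normalized, and that step does not cancel in a share of genes at such different levels. Since Orm1 is so much more abundant, a small share of its reads credited to a copy would be a large part of that copy's value.

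**Figure D2:**
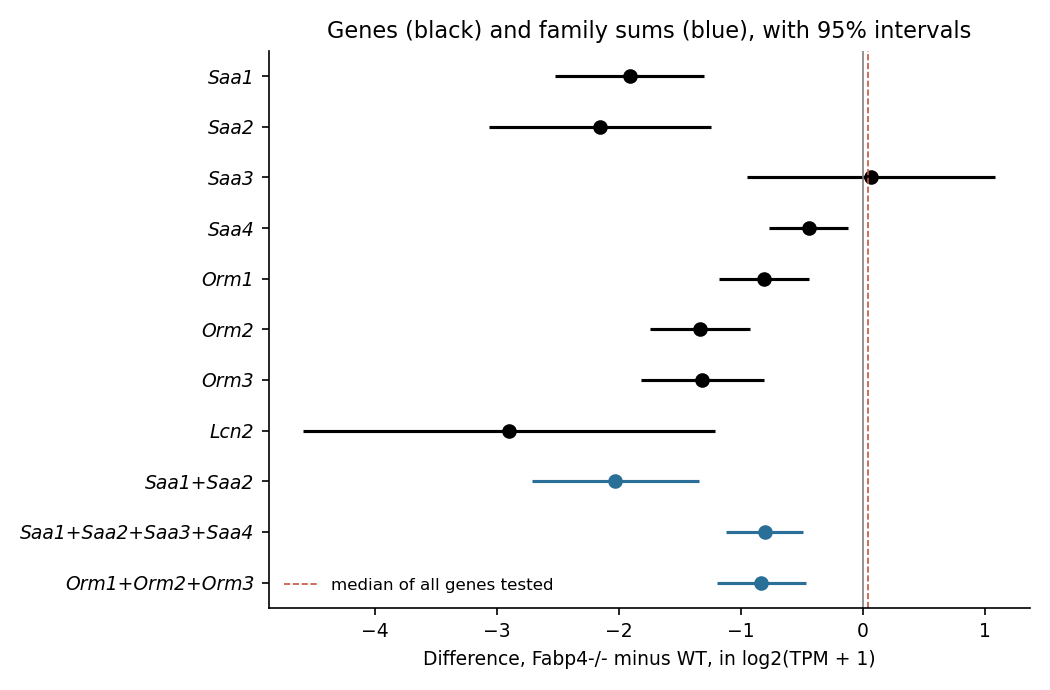
Difference of knockout minus wild type on the log2(TPM + 1) scale for the 8 genes (black) and 3 family sums (blue), as points with 95% intervals from limma, unadjusted for the number of genes. The interval of Saa3 crosses 0, the others lie below it, and that of Lcn2 is the widest; the dashed line marks the median of all genes tested, 0.04.

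Lcn2 measured 232, 614 and 76.1 TPM across the wild type and 31.8, 15.0 and 49.7 TPM across the knockout libraries. The wild type libraries spread 8.07-fold, led by replicate 2, while the lowest of them was still 1.53 times the highest knockout library. The knockout mean was 10.5% of the wild type mean, and the log2 difference was -2.90 with the widest error of the 8 (SE 0.73, 95% interval -4.58 to -1.21; limma adjusted p 0.522). Leaving out 1 library at a time gave differences from -3.66 to -2.17. Without both wild type replicate 2 and knockout replicate 1 it was -2.24. Lcn2 ranked 420th of all genes by mean TPM in wild type and 2720th in the knockout.

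Neutrophils carry Lcn2 in their granules, so their markers are given beside it. The 13 markers summed to 21.6 to 51.1 TPM in wild type, most in replicate 2, and to 17.5 to 22.2 TPM in the knockout. Of 5 abundant enough to test, S100a8 (log2 difference -1.02, SE 0.37), S100a9 (-0.73, SE 0.25) and Retnlg (-1.0, SE 0.35) were lower at an unadjusted p under 0.05 and the integrin gene Itgam was higher (0.47, SE 0.18). At that threshold 2.91% of all genes were lower and 5.12% higher. The count of 3 lower rested on single libraries. It fell to 0 on dropping any 1 of wild type replicates 1 and 2 and knockout replicate 3. It was 2 on dropping knockout replicate 1 or 2, and stayed at 3 on dropping wild type replicate 3. With both libraries that lay apart dropped, it was 1. The count higher was 0 or 1 throughout. The 8 markers that were not tested fell under the abundance filter. Camp had no value in any library, Ngp and Ltf had none in wild type and at most 0.157 TPM in the knockout, and Mmp8 was at most 0.356 TPM. Ly6g and Mpo had a value in wild type replicate 2 only (0.104 and 0.0378 TPM). Cxcr2 measured 0.158 to 0.437 TPM over the libraries, and Elane at most 0.320 TPM. The tested Csf3r had a log2 difference of -0.12 (SE 0.22). The part of neutrophils in the Lcn2 values was not tested.

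Within libraries, the families were also compared with each other, so that a scale factor common to a library cancels. The deposited values look quantile normalized, and that step does not cancel in a ratio of genes at different levels. The log2 ratio of the Saa1 and Saa2 sum to the Orm sum was -3.50, -3.53 and -3.49 in wild type, 3 nearly equal values. In the knockout it was -5.20, -5.05 and -3.97, lower in all 3 libraries and much more scattered (difference -1.24, exact permutation p = 0.1, adjusted p 0.14 over 7 ratios). Knockout replicate 3 came closest to wild type. The log2 ratio of Lcn2 to the Saa1 and Saa2 sum, also added after the values had been seen, was 0.85, 2.45 and -0.55 in wild type and 0.84, -0.86 and 0.14 in the knockout. These ranges overlap (exact permutation p = 0.4), so Lcn2 was not shown to differ from the inducible pair in its response, and wild type replicate 2 stood apart.

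**Figure D3:**
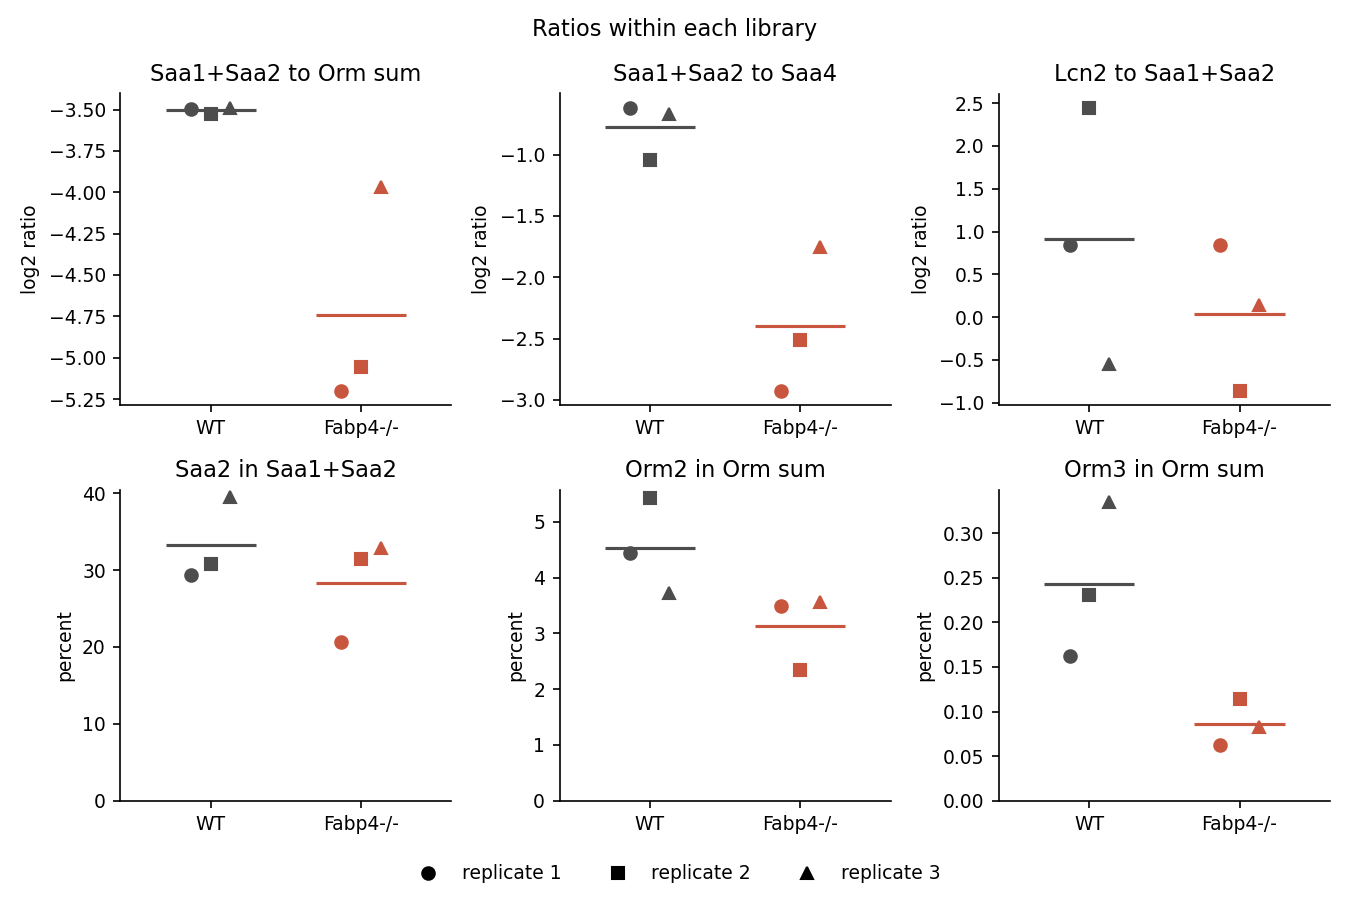
Ratios computed within each of the 6 libraries, as log2 ratios between genes (top row, axes not from 0) and as percentages of a family sum (bottom row, axes from 0), with marker shape for the replicate number and a line for the group mean. The 3 wild type values of the Saa1 and Saa2 sum over the Orm sum lie between -3.53 and -3.49, and the knockout values between -5.20 and -3.97.

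The members did not share 1 order of libraries within a group. Among the knockout libraries, replicate 1 was lowest for 5 members (Saa1, Saa2, Saa4, Orm1 and Orm3) and highest for none. Knockout replicate 3 was highest for 5 (Saa1, Saa2, Saa3, Orm2 and Lcn2) and lowest for none. In wild type, replicate 3 was lowest for Saa1, Saa4, Orm1, Orm2 and Lcn2 but highest for Saa2 and Orm3. Wild type replicate 2, highest for Saa4, Orm2 and Lcn2, was lowest for Saa2 and Saa3.

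Genes of the signalling that induces the members were then read from lists by role. Of 10 ligand genes, 4 passed the filter, with no difference below 0 among them. Il1b measured 5.34, 1.40 and 1.13 TPM across the wild type and 4.13, 3.17 and 3.33 TPM across the knockout libraries, overlapping ranges (log2 difference 0.51, SE 0.39). The differences of Il1a, Ctf1 and Clcf1, which encode interleukin 1 alpha and 2 ligands of the interleukin 6 family, were 0.32 (SE 0.23), 0.18 (SE 0.33) and 0.01 (SE 0.20). Il6 itself was too low to test. It measured 0.428 and 0.0858 TPM for wild type replicates 1 and 3, had no value in replicate 2, and measured 0.726, 0.461 and 0.306 TPM across the knockout libraries.

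Of 12 receptor genes, all tested, none was lower at an unadjusted p under 0.05 and 1 was higher, Il10rb (0.47, SE 0.19), a shared chain of the interleukin 10 and 22 receptors. Over all genes, 2.91% were lower and 5.12% higher at that threshold. The median difference of the receptor genes was -0.13. The interleukin 1 receptor gene Il1r1 had -0.89 (SE 0.41), with 39.2 TPM in wild type replicate 2 against 9.0 to 17.6 TPM in the other libraries, and Il22ra1 had 0.43 (SE 0.21). Tnfrsf1a, the main receptor of tumour necrosis factor, had -0.40 (SE 0.23).

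Of 20 genes for signal carriers and transcription factors, 3 were lower and 1 higher at an unadjusted p under 0.05, where 2.91% and 5.12% of all genes were. The median difference was 0.02. Stat3, the transcription factor of interleukin 6 signalling, measured 63.1, 87.3 and 47.0 TPM across the wild type and 42.1, 36.8 and 29.5 TPM across the knockout libraries, without overlap (log2 difference -0.82, SE 0.24; limma adjusted p 0.535). Cebpd, a C/EBP factor induced in the acute phase, measured 8.14, 8.81 and 7.43 TPM across the wild type and 6.25, 3.75 and 3.04 TPM across the knockout libraries (-0.81, SE 0.22; limma adjusted p 0.522). The liver factor Onecut1 was the third (-1.16, SE 0.21; limma adjusted p 0.499), and the NF-kB subunit gene Nfkb1 was the 1 that was higher (0.29, SE 0.12; limma adjusted p 0.611). So Stat3, Cebpd and Onecut1 lay on the same side as the members. The count of 1 higher fell to 0 on dropping wild type replicate 2 or 3 or any knockout replicate. The count lower was 3 or 5 in these runs. The part of these factors in the members' levels was not tested.

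Of 9 tested inhibitor genes of the pathway, none had an unadjusted p under 0.05 (median 0.07). Socs3, the feedback inhibitor that STAT3 induces, measured 6.88, 22.8 and 2.54 TPM across the wild type and 4.78, 2.82 and 3.26 TPM across the knockout libraries. These values overlap, and wild type replicate 2 was the high library, as it was for Lcn2 (log2 difference -0.94, SE 0.60). The smallest p of the list belonged to the glucocorticoid-induced Tsc22d3 (0.58, SE 0.25), and Pias3 and Socs1 had 0.15 (SE 0.15) and -0.22 (SE 0.24).

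Other induced acute-phase genes lay on the side of the members more often than not. Of 25 tested, 11 were lower and 1 higher at an unadjusted p under 0.05, where 2.91% and 5.12% of all genes were, and the median difference was -0.56. Wild type replicate 2 was the highest library for 9 of these 11, and the summed level of the list was 46212, 66598 and 35271 TPM across the wild type and 32209, 32388 and 31470 TPM across the knockout libraries. The groups did not overlap, but the third wild type library lay close to the knockout. Without wild type replicate 2 the list had 10 lower and 1 higher, with a median of -0.35, and without knockout replicate 1 as well it had 10 lower and 1 higher, with a median of -0.42. Leaving out wild type replicate 1, knockout replicate 2 or knockout replicate 3 left 7 lower each. Leaving out wild type replicate 3 gave 16 lower, with a median of -0.71, and leaving out knockout replicate 1 alone gave 10. These counts were added after the values had been seen. The smallest p-values were those of Lrg1, a secreted leucine-rich glycoprotein (-1.37, SE 0.32), the metallothionein genes Mt2 (-4.19, SE 0.97) and Mt1 (-3.20, SE 0.78), and the serpin Serpina3m (-0.58, SE 0.16), with limma adjusted p-values of 0.522 each. Mt2 measured 233, 2603 and 265 TPM across the wild type and 73.3, 12.9 and 24.7 TPM across the knockout libraries. Mt1 measured 343, 1884 and 383 TPM across the wild type and 181, 33.6 and 49.7 TPM across the knockout libraries. Both metallothionein genes were several times higher in wild type replicate 2 than in the other wild type libraries, and neither overlapped between the groups. Of 10 genes of negative acute-phase proteins, whose synthesis drops in inflammation, none had an unadjusted p under 0.05 (median 0.06). Alb, 1 of the 10, has the same value in all 6 libraries, the shared maximum of the deposited values, and carries no information, and the other 9 had a median of 0.09. Their smallest p-values were those of Serpina6 (0.45, SE 0.26), Ahsg (-0.29, SE 0.19), Igf1 (-0.20, SE 0.13) and Apoa1 (-0.23, SE 0.18).

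**Figure D4:**
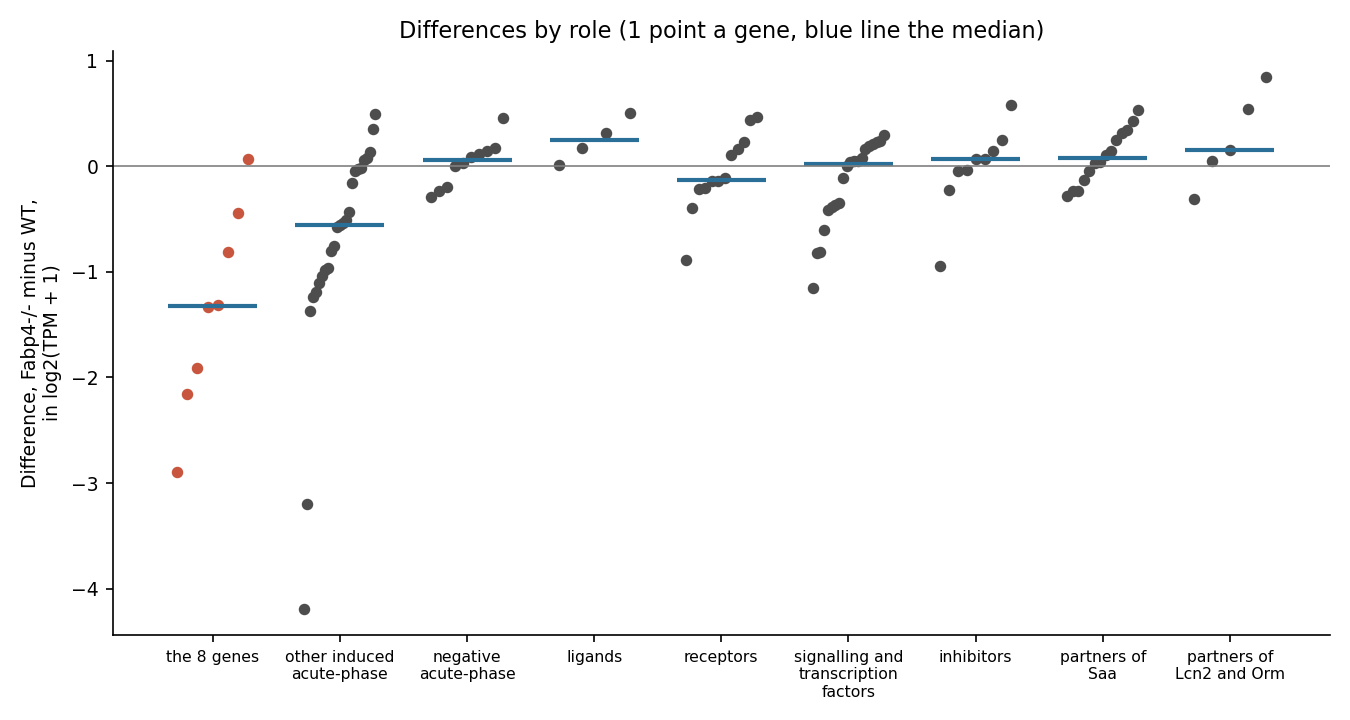
Difference of knockout minus wild type on the log2(TPM + 1) scale, 1 point a gene and a blue line for the median, for the 8 genes (red) and for genes grouped by role. The medians of the 8 genes (-1.33) and of the other induced acute-phase genes (-0.56) lie below 0, and those of the remaining lists between -0.13 and 0.25.

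Of 14 tested receptors and lipoprotein partners of serum amyloid A, 1 had an unadjusted p under 0.05. This was the phospholipid transfer protein gene Pltp, higher in the knockout (0.53, SE 0.22), as were 5.12% of all genes at that threshold. The median of the list was 0.07. The purinergic receptor gene P2rx7 had 0.35 (SE 0.18), the lipid exporter gene Abca1 -0.23 (SE 0.15), and Apoa1, the main protein of the lipoprotein that SAA rides on, -0.23 (SE 0.18). Among 5 tested partners of lipocalin 2 and orosomucoid none had an unadjusted p under 0.05 (median 0.15). Asgr1, a subunit of the receptor that clears desialylated glycoproteins, had -0.31 (SE 0.15), the transferrin receptor gene Tfrc 0.84 (SE 0.45) and the iron exporter gene Slc40a1 0.15 (SE 0.22). The lipocalin 2 receptor genes Slc22a17 and Lrp2 fell under the abundance filter.

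No tested gene next to the members was lower at an unadjusted p under 0.05, where 2.91% of all genes were. The neighbours are too few to be set against that share. Within 100 kb of the serum amyloid A cluster 5 other genes were abundant enough to test, with differences between -0.22 (the lactate dehydrogenase gene Ldha) and 0.26 (Hps5), none at an unadjusted p under 0.05. Saal1, 1.31 kb from Saa3, had -0.12 (SE 0.19). Of 8 genes near Lcn2, none had an unadjusted p under 0.05 (differences from -0.15 to 0.30), and only Dnm1 was without overlap, being higher, as were 8.94% of all genes. Near the Orm cluster, Akna, 1.25 kb from Orm2, had 0.08 (SE 0.20), and the collagen gene Col27a1 was higher in the knockout (0.70, SE 0.22; unadjusted p 0.0148 in limma).

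Genes with the most similar profiles were sought among 7552 named genes with a mean of at least 5 TPM, by the root mean square (RMS) difference of centred log2(TPM + 1) over the 6 libraries, in which a small value means a similar profile. Genes that differ between the groups are found by this measure because the members do, so it is a description. For the Saa1 and Saa2 sum the nearest were the glycerophosphocholine phosphodiesterase gene Gpcpd1 (0.57), the NKG2D ligand gene Raet1d (0.60), Zfp36, whose product destabilizes cytokine mRNAs (0.60), the AP-1 subunit gene Junb (0.62) and Onecut1 (0.65). Among the members, Orm2 (0.51) and Orm3 (0.57) were as near or nearer, Orm1 was at 0.72, Saa4 at 0.87, Lcn2 at 1.07 and Saa3 at 1.23. For the Orm sum the nearest included the sialyltransferase gene St6gal1 (0.15), the glucocorticoid-induced factor gene Klf9 (0.16), the pyruvate dehydrogenase phosphatase gene Pdp2 (0.17) and Ildr2 (0.17).

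For Lcn2 the nearest gene was the neutrophil-attracting chemokine gene Cxcl1 (0.67), with 31.6, 119 and 8.35 TPM across the wild type and 13.6, 4.73 and 10.5 TPM across the knockout libraries. Both genes were highest in wild type replicate 2 and lowest in knockout replicate 2. Mt1 (0.89), the kinase gene Pim3 (0.92), the asparagine synthetase gene Asns (0.92) and Lrg1 (1.03) followed. Saa1 (1.04) was the nearest member, and would be number 6 among the genes searched. For Saa3 they were the immediate early gene Ier2 (0.21), Slfn2 (0.23), the MAP kinase phosphatase gene Dusp6 (0.25), Tmem25 (0.25) and Ncald (0.29), all 5 lowest in wild type replicate 2. For Saa4, whose profile is the flattest, they were Tmem87b (0.05), Aim1 (0.06), the formin gene Inf2 (0.06), Dst (0.08) and Sidt2 (0.08).

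**Figure D5:**
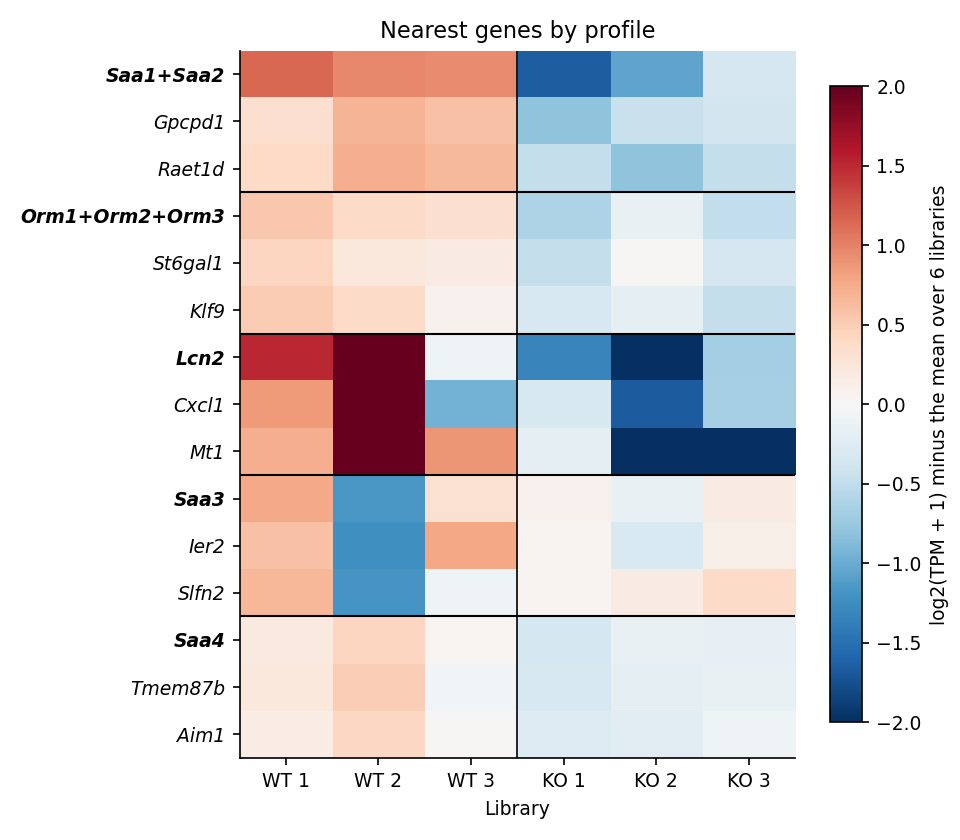
Centred log2(TPM + 1) in the 6 libraries (columns; WT wild type, KO knockout, numbers the replicates) for 5 member profiles (bold) and the 2 genes nearest to each, with red above and blue below the gene's own mean and colours ending at -2 and 2. The Saa1 and Saa2 sum and the Orm sum are red in all 3 wild type libraries, while Saa3 and its nearest genes are bluest in wild type replicate 2.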

How the data were processed

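RNA was extracted from flash-frozen liver with TRIzol and sequenced on a HiSeq instrument, per the labels' protocols. FastQC, Trimmomatic and the mm10 build are named in the submitters' processing notes. For other tools, the annotation and strandedness: not given in the sources used here. The file headers name the deposited columns TPM. What the columns hold is log2 of TPM as deposited, with values down to -8.88 and antilogarithms whose sum lies between 983800 and 1018118. All 6 libraries share the maximum of 16.59 and a median of 1.07, as quantile normalization leaves, so a shift of all genes cannot be seen. Values were back-transformed to TPM, with a blank as 0.

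Knockout was tested against wild type by limma 3.58.1 (R 4.3.3) on log2(TPM + 1), for genes with a mean of at least 0.5 TPM, with a trended variance, group as the only term and Benjamini-Hochberg adjustment over all 14155 genes. A family sum replaced its members in the same fit. Ratios within libraries were compared by exact permutation. The fit was tested on simulated data. Members and lists were chosen with earlier results of these data known. The text names all members, up to 4 genes per list by smallest p, every tested ligand, the nearest profiles and the neighbouring genes within 100 kb. Some genes that this rule names are not reported here. Further genes were named after their values were seen. The labels do not say that each library is a separate mouse, so a p-value covers only the spread among these libraries, which may be technical. Sequences were not used here. Alternatives were another pseudocount, other filters and scalings, a replicate block and leaving out libraries.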

Additional observations from a re-analysis of the deposited data

How the results depend on the processing

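The 7 genes lower in the knockout, and the 3 family sums, kept that direction in every alternative run. The number of genes past the limma adjusted threshold over the whole table was 1, and became 0 without a filter and 0 with the replicate block. It was 0 to 6 when 1 library was left out and 3 without both wild type replicate 2 and knockout replicate 1, a setting chosen after seeing the data. The difference of the Saa1 and Saa2 sum was -2.36 to -1.71 with 1 library left out. With 1 library left out Saa3 lay between -0.50 and 0.46. It reversed to -0.50 without wild type replicate 2, to -0.000598 without knockout replicate 3 and to -0.52 without both libraries that lay apart. The cause was not tested. Without wild type replicate 2, 8 of the members were lower at an unadjusted p under 0.05. Median scaling moved the split of all genes with an unadjusted p under 0.05 from 725 higher and 412 lower to 565 and 530, and left 7 members lower. Orm3 falls under the filter of 5 TPM.

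The labels tie no replicate number to a shared litter, and deviations of same-numbered libraries correlated at -0.27 to -0.05, with 0 of the 6 libraries closest to its own number. With the replicate block the limma difference of the Saa1 and Saa2 sum was -2.03 (adjusted p 0.823), and 7 members were lower at an unadjusted p under 0.05. TPM gives no depth, so the precision of the scarce Orm3 is unknown.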

Other observations

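Marker lists of further liver cell types were read beside the members. Of 10 hepatocyte markers, the cells that make most of these proteins, 1 had an unadjusted p under 0.05, Cyp3a11, higher in the knockout (0.51, SE 0.18), and the list's median log2 difference was 0.04. Alb, equal in all 6 libraries, carries no information in this list either, and the other 9 had a median of 0.08. Hnf4a (0.08), Apoa1 (-0.23) and Tdo2 (-0.29) had the next smallest p-values of that list. Endothelial markers were higher for 5 of 8 at an unadjusted p under 0.05 (median 0.46), with Ehd3 (0.79, SE 0.17), Oit3 (0.54, SE 0.14), Kdr (0.45, SE 0.13) and Cdh5 (0.75, SE 0.22) first. Stellate cell markers were higher for 2 of 8 (median 0.21), Lum (0.77, SE 0.12) and Col3a1 (0.64, SE 0.24), and lymphocyte markers for 2 of 5 tested (median 0.23), the B cell genes Cd79b (0.96, SE 0.22) and Ms4a1 (0.69, SE 0.19). Of 5 tested cholangiocyte markers, another possible source of Lcn2, none had an unadjusted p under 0.05 (median 0.18), and their sum was 45.5 to 80.7 TPM in wild type and 49.0 to 75.7 TPM in the knockout. Of 4 tested adipocyte markers none had an unadjusted p under 0.05 (median 0.25). These were Cfd, Car3, Cidec and Pparg, while Adipoq, Plin1, Lep and Retn fell under the abundance filter. Over all genes, 5.12% were higher at an unadjusted p under 0.05.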
